A study of Mus musculus with 4 samples.

Results

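The inner-arm dynein heavy chains are the motor subunits of the inner row of arms on the axoneme, the microtubule core of a motile cilium or sperm flagellum. The set was defined by gene symbol as Dnah1, Dnah2, Dnah3, Dnah6, Dnah7a, Dnah7b, Dnah7c, Dnah10, Dnah12 and Dnah14. Of these 10 members, 6 were listed in the deposited table of 18471 genes: Dnah1, Dnah2, Dnah7a, Dnah7b, Dnah7c and Dnah10. Dnah3, Dnah6, Dnah12 and Dnah14 were not listed, either by symbol or by Ensembl identifier, and have no value here. The smallest sum over the 4 libraries of any listed gene was 16 counts. All 6 listed members passed the filter on low counts.

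RNA was sequenced from retinas of mouse embryos at embryonic day 19. The control embryos were labelled wild-type (2 libraries). The others were labelled Foxn3KO, genotype Foxn3-/-, and carried the allele C57BL/6NJ-Foxn3em1(IMPC)Bay/Mmnc, which lacks exon 3 of Foxn3, the gene of a forkhead transcription factor (2 libraries). The series concerns the part of Foxn3 in the control of primary cilia in the retina. Each library came from an individual genotyped embryo per the labels, so replicates are embryos.

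Each axonemal dynein heavy chain carries a ring-shaped ATPase motor that pulls on the neighbouring doublet microtubule, and the bending of a motile cilium results from this sliding. Dnah10 and Dnah2 encode the paired heavy chains of the double-headed inner arm, called I1 or f, whereas the other inner arms each hold a single heavy chain. The primary cilia of retinal progenitors and the connecting cilium of photoreceptors are non-motile and lack dynein arms. Forkhead factor Foxj1 and the RFX factors, which bind the X-box, an inverted repeat built on GTTGC, are known activators of motile cilia genes.

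Promoter stretches are shown first, because the Dnah7 copies and Dnah6 held an uncommon sequence element there. It was not found in the bases searched for the other members with a promoter entry. RefSeq promoters (build GRCm38.p6, whereas the submitters' processing notes name mm39) were matched by symbol for 9 of the 10 members. In the 250 bases before the start, the inverted repeat GTTGCNNNGCAAC was present in 4 of the 9: Dnah7a, Dnah7b, Dnah7c and Dnah6. It was present in 68 of all 32851 promoters (0.207%) and in 0 of 5 outer-arm heavy chain promoters. This form of the motif was chosen after the members' sequences had been seen. The repeat is its own reverse complement, so both strands give the same matches. The following 30 bases around it, 5′ to 3′ on the gene's strand with the repeat in capitals, lie at chr1:53706821-53706850 (minus strand), chr1:46066820-46066849 (plus strand) and chr1:46425440-46425469 (plus strand).
Dnah7a: cgccagtttGTTGCTTAGCAACgaatcgac
Dnah7b: cgccagtttGTTGCTTAGCAACgaatcgac
Dnah7c: ctccagtttGTTGCTTAGCAACgaatcgac
The Dnah7a and Dnah7c promoters were identical at 119 of 127 bases aligned on the repeat (93.7%), and Dnah7a and Dnah7b at 113 of 124 (91.1%). The Dnah7 matches are therefore not independent, and 4 of 9 cannot be read as separate cases beside the share of all promoters.

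Both I1 heavy chains lacked this repeat. The 80 bases before the Dnah10 start (chr5:124725005-124725084, plus strand) are shown because this gene had the largest change, with GTTGCC, a single arm of the X-box, in capitals at position -20, counting back from the start. The Dnah10 stretch ends in a further GTTGC, at the edge of the window searched and not marked. The same 80 bases of Dnah2 (chr11:69549109-69549188, minus strand) are shown for comparison.
Dnah10: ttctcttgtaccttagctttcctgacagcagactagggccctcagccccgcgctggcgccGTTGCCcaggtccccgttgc
Dnah2: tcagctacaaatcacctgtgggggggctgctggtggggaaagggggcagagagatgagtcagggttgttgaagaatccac
GTTGCC, searched on both strands (reverse complement GGCAAC), was present in 4 of the 9 member promoters, in Dnah7a, Dnah7b, Dnah7c and Dnah10, and in 10.4% of all promoters. These GTTGCC matches did not overlap the inverted repeat, and those of the near-identical Dnah7 promoters are again not independent. The forkhead motif GTAAACA (reverse complement TGTTTAC) was found in 0 of the 9 and in 3.17% of all promoters. The alternative forkhead motif GACGC (reverse complement GCGTC) was present in Dnah1 and Dnah6 and in 22.6% of all promoters. The Dnah2 window held none of the 4 motifs. A match gives the letters only and does not show binding.

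The libraries were sequenced to 22543531 to 29360129 counts, and 3 counts corresponded to 0.102 to 0.133 CPM (read counts scaled to library size). Foxn3 itself had 2421 and 2712 counts in the wild-type-labelled libraries and 4181 and 3219 in the Foxn3KO-labelled ones. In CPM it was higher in the Foxn3KO-labelled libraries, at 143.5 and 143.7 against 97.6 and 99.8. The log2 fold change was 0.54 (edgeR adjusted p = 7.8e-08). Gene counts do not resolve exon 3, so they do not check the labels, and every direction below rests on the labels. Wild-type replicate 1 held 83073 Xist counts and each other library 9 to 19, so that library differs from the other 3 in sex pattern as well as, for 2 of them, in genotype. The retina was recognisable in all libraries: 11 of 11 retinal markers, such as Pax6, Rax and Crx, were listed, with a summed level of 3169 to 3332 CPM.

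Between the groups, 5 of the 6 listed inner-arm heavy chains were higher in the Foxn3KO-labelled libraries and 1, Dnah1, was not distinguishable. This call is an adjusted p under 0.05 by edgeR's quasi-likelihood test with Benjamini-Hochberg adjustment over 17300 tested genes. In the same comparison 21.9% of all tested genes were called, 12.3% higher and 9.66% lower. The median log2 fold change was 1.26 over the 6 members and -0.0047 over all tested genes. The called members ranged from 1.55-fold (Dnah7a) to 160.2-fold (Dnah10). The values of the same 5 genes did not overlap between the groups and were higher in the Foxn3KO-labelled libraries, which held for 29.9% of all tested genes (60.4% in either direction).

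**Figure D1:**
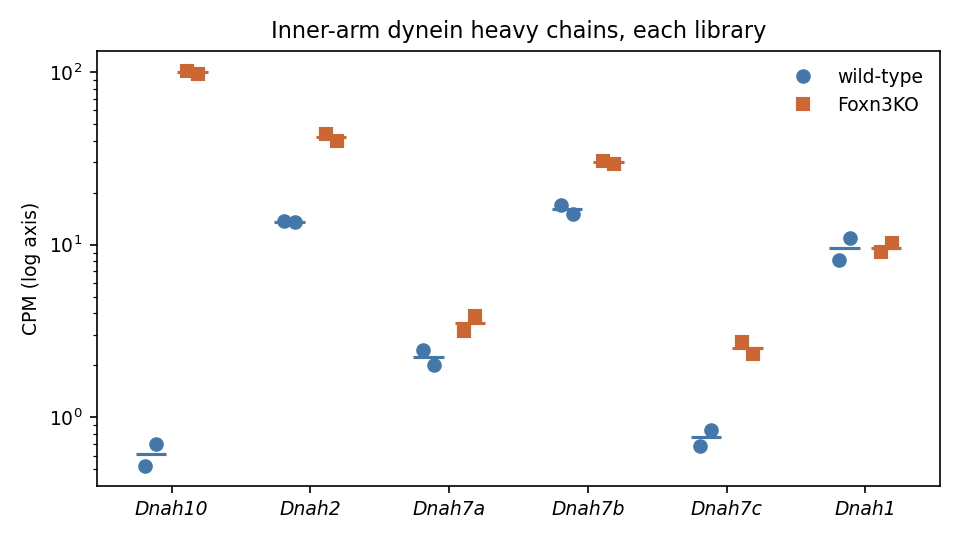
CPM of the 6 listed inner-arm heavy chains in each library on a log axis, with wild-type libraries as circles, Foxn3KO libraries as squares and group means as bars. Dnah10 moved from below 1 CPM to the highest level of the 6 genes (101.8 and 96.8 CPM), whereas the groups of Dnah1 overlap.

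Dnah10 (ENSMUSG00000038011, chromosome 5), the alpha heavy chain of the I1 arm, had 13 and 19 counts in the wild-type-labelled libraries and 2966 and 2169 in the Foxn3KO-labelled ones. It was thus close to silent in both wild-type retinas and well covered in both others. Its level was 0.612 ± 0.124 CPM against 99.3 ± 3.54 CPM (SD, n = 2 each). The log2 fold change was 7.32 (SE 0.101, edgeR adjusted p = 1.6e-18). The size of this fold rests on 32 wild-type counts in all, for which counting error alone gives a 95% exact Poisson interval of 21.9 to 45.2.

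Dnah2 (ENSMUSG00000005237, chromosome 11), the beta heavy chain of the same arm, had 340 and 366 counts in the wild-type-labelled libraries and 1272 and 893 in the Foxn3KO-labelled ones. Unlike Dnah10 it was well above the counting limit in all 4 libraries. It rose from 13.6 ± 0.169 to 41.8 ± 2.69 CPM (SD, n = 2 each). The log2 fold change was 1.62 (SE 0.0773, edgeR adjusted p = 2.44e-11).

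The balance of these partner chains was therefore opposite in the groups. In FPKM, the authors' level scaled by gene length and library depth, Dnah2 exceeded Dnah10 28.1-fold and 20.7-fold in the wild-type libraries. In the Foxn3KO-labelled libraries, Dnah10 exceeded Dnah2 2.17-fold and 2.26-fold.

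Dnah7a, Dnah7b and Dnah7c encode closely related single-headed heavy chains from separate genes on chromosome 1, and Dnah7b carried most of their reads. Dnah7b (ENSMUSG00000041144) had 422 and 409 counts in the wild-type-labelled libraries and 892 and 658 in the Foxn3KO-labelled ones. All its Foxn3KO values lay above its wild-type values, at 30.0 ± 0.885 against 16.0 ± 1.39 CPM (SD, n = 2 each). The log2 fold change was 0.91 (SE 0.0834, edgeR adjusted p = 2.3e-07).

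Dnah7c (ENSMUSG00000101337) had only 17 and 23 counts in the wild-type-labelled libraries and 80 and 52 in the Foxn3KO-labelled ones. From this low level it rose by a log2 fold change of 1.72 (SE 0.293, edgeR adjusted p = 0.000309), from 0.766 ± 0.114 to 2.53 ± 0.301 CPM (SD, n = 2 each).

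Dnah7a (ENSMUSG00000096141) had 61 and 55 counts in the wild-type-labelled libraries and 92 and 86 in the Foxn3KO-labelled ones. Its groups did not overlap, with 2.24 ± 0.308 against 3.50 ± 0.481 CPM (SD, n = 2 each). The log2 fold change of 0.63 (SE 0.218) passed the threshold narrowly (edgeR adjusted p = 0.0456). It did not pass with DESeq2 (adjusted p = 0.197; DESeq2 called 14.1% of all tested genes), limma-voom (0.0575) or total count scaling (0.0516), nor without wild-type replicate 2 (0.176) or Foxn3KO replicate 2 (0.272). In the authors' deposited table Dnah7a had a log2 fold change of 0.36 and an adjusted p of 0.191. The DESeq2 fit made here gave a log2 fold change of 0.64 at nearly the same adjusted p. The deposited fold change therefore need not be the same measure.

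Reads may be split among the Dnah7 copies, so their separate values are uncertain. In the longest coding transcripts of GENCODE M21, 19.96% of all 100-base windows of Dnah7a, 23.5% of Dnah7b and 24.9% of Dnah7c occurred unchanged in another member. Dnah1, Dnah2 and Dnah10 shared 0 such windows. The sum of the copies gave 500 and 487 counts in the wild-type-labelled libraries and 1064 and 796 in the Foxn3KO-labelled ones. Their summed level was 19.04 ± 1.58 against 36.0 ± 0.704 CPM (SD, n = 2 each), a ratio of 1.89. Dnah7b held 82.7% to 84.4% of these counts in every library, so its share hardly moved while the sum rose.

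Dnah1 (ENSMUSG00000019027, chromosome 14), a single-headed heavy chain best known for its need in sperm flagella, had 201 and 297 counts in the wild-type-labelled libraries and 264 and 228 in the Foxn3KO-labelled ones. The wild-type libraries enclosed both others, at 8.10 and 10.9 against 9.06 and 10.2 CPM. The log2 fold change was 0.01 (SE 0.139, edgeR adjusted p = 0.978). Its sign changed with the scaling and with the library left out, from -0.19 without wild-type replicate 1 to 0.24 without wild-type replicate 2. None of these values passed the threshold.

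Exons of Dnah1, Dnah2 and Dnah10 overlap exons of antisense genes in GENCODE M21 (Gm35823, Dnah2os and Gm43777), which were not listed in the table. The library kit keeps strand information per the labels, but the use of strand in counting is not given in the sources used here. Reads from these pairs could therefore not be told apart.

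Per length, the order of the members differed between the groups. In the wild-type-labelled libraries the mean FPKM fell from Dnah2 (0.904 ± 0.0101) through Dnah7b (0.799 ± 0.0682), Dnah1 (0.727 ± 0.154), Dnah7a (0.175 ± 0.0238) and Dnah7c (0.0606 ± 0.00908) to Dnah10 (0.0379 ± 0.00771; SD, n = 2 each). Dnah7b and Dnah1 overlapped in FPKM in these libraries and were not separated by it, and the other neighbours did not overlap. The gene lengths behind the FPKM are not given in the sources used here. In wild-type CPM, Dnah7b lay above Dnah2 (16.0 against 13.6), although its longest coding transcript in GENCODE M21 is shorter (12314 against 13704 bases). Dnah7b also lay above Dnah1 in wild-type CPM, without overlap (17.01 and 15.05 against 8.10 and 10.93). Its longest coding transcript is again the shorter (12314 against 12872 bases). The wild-type place of Dnah7b beside Dnah2 and Dnah1 therefore depends on the length used. In the Foxn3KO-labelled libraries the order was Dnah10 (6.16 ± 0.219), Dnah2 (2.78 ± 0.179), Dnah7b (1.497 ± 0.0440), Dnah1 (0.736 ± 0.0603), Dnah7a (0.273 ± 0.0376) and Dnah7c (0.201 ± 0.0238), and no neighbours overlapped. Dnah10 thus held the last place in the wild-type order and the first in the other. Its last place rests on few counts, 13 and 19 against 17 and 23 for Dnah7c, and counting error was not allowed for in the order.

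The summed FPKM of the 6 genes was 2.66 and 2.75 in the wild-type-labelled libraries and 11.9 and 11.4 in the Foxn3KO-labelled ones, 4.31 times higher on average. Dnah10 made up 1.22% and 1.58% of the sum in the wild-type libraries and 53.0% and 52.7% in the others. Without Dnah10 the ratio of the sums was 2.06.

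**Figure D2:**
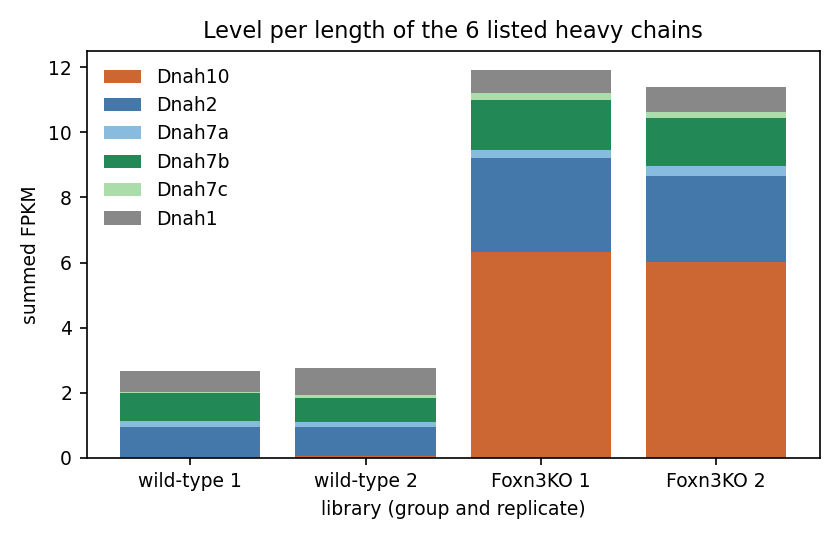
Stacked bars of FPKM for the 6 listed inner-arm heavy chains in each library, 1 colour per gene. The bars reach 2.66 and 2.75 in the wild-type libraries and 11.9 and 11.4 in the Foxn3KO libraries, where Dnah10 fills 53.0% and 52.7%.

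The outer-arm heavy chains and the cytoplasmic dynein heavy chains were set beside them. Of 5 outer-arm heavy chains, 3 were called higher (12.3% of all tested genes), 0 lower (9.66%) and 2 did not pass. Their log2 fold changes ranged from -0.11 to 4.11. Dnah9 had 73 and 71 counts in the wild-type-labelled libraries and 1386 and 1084 in the Foxn3KO-labelled ones (log2 fold change 4.11, edgeR adjusted p = 7.92e-16). Dnah11 had 118 and 129 against 750 and 640 counts (2.51, edgeR adjusted p = 3.02e-12). Each arm type thus held heavy chains that rose and at least 1 that did not pass, and whether the types differ was not tested. Dync2h1, the heavy chain of the retrograde motor inside all cilia, had a log2 fold change of 0.88 (edgeR adjusted p = 1.63e-10). Dync1h1, the heavy chain of cytoplasmic dynein, rose by 0.18 in log2 terms (edgeR adjusted p = 0.0154), but did not pass without Foxn3KO replicate 1 (adjusted p = 0.0733) or Foxn3KO replicate 2 (0.115). Leaving out wild-type replicate 1 gave a log2 fold change of 0.09, and leaving out replicate 2 of that group gave 0.28.

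**Figure D3:**
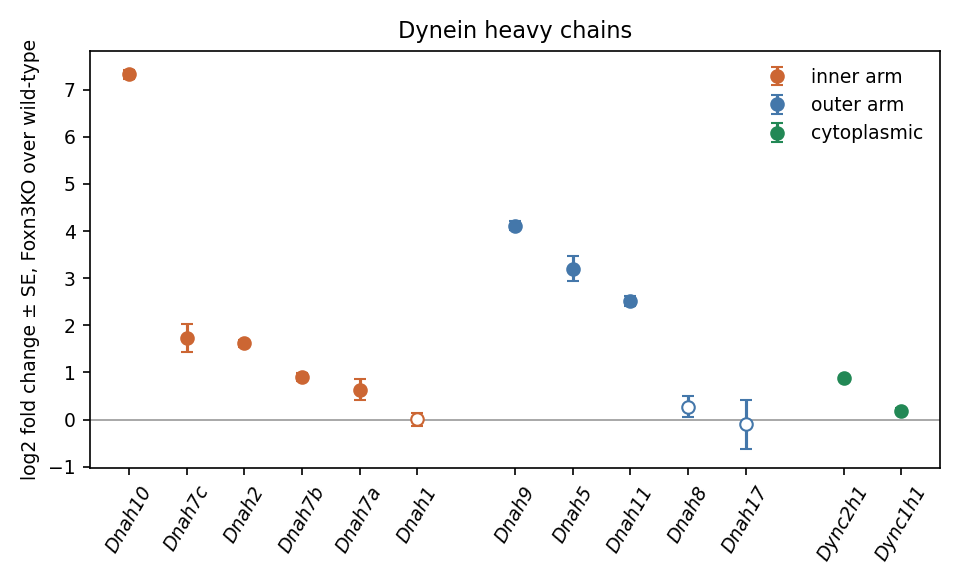
Log2 fold change with its SE, Foxn3KO over wild-type, for inner-arm, outer-arm and cytoplasmic dynein heavy chains; filled points passed the threshold and open points did not. Dnah10 (7.32) lies above every other heavy chain drawn, the next being Dnah9 at 4.11.

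Genes whose products complete, hold or assemble the inner arms were counted in the same fit. In that fit 12.3% of all tested genes were called higher and 9.66% lower. Of 5 other inner-arm subunits, 3 were listed and all 3 were higher. Dnai3, an I1 intermediate chain, had 26 and 27 counts in the wild-type-labelled libraries and 1027 and 787 in the Foxn3KO-labelled ones, a log2 fold change of 5.10 (edgeR adjusted p = 1.07e-15). Dnai4, another I1 intermediate chain, rose by 1.74 (edgeR adjusted p = 1.29e-12). Within the I1 arm, the listed subunits therefore included a pair that rose from few counts, Dnah10 and Dnai3, and a pair that rose from a well-measured level, Dnah2 and Dnai4.

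The anchors of the inner arms, that is the I1 tether, the modifier of inner arms, the nexin-dynein regulatory complex and the axonemal ruler, had 14 of 17 genes listed. All 14 were called higher (12.3% of all tested genes were), with log2 fold changes of 0.47 to 8.43 and a median of 2.73. Cfap44, a subunit of the I1 tether, had 8 and 4 counts in the wild-type-labelled libraries and 2389 and 1801 in the Foxn3KO-labelled ones (8.43, edgeR adjusted p = 1.08e-17). Ccdc40, of the ruler that sets the spacing of inner arms, rose by 3.11 (edgeR adjusted p = 1.88e-16).

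Cytoplasmic assembly factors of dynein arms had 16 of 17 genes listed. Of these, 14 were called higher (12.3% of all tested genes) and 0 lower (9.66%), with a median of 1.34. The 2 members that did not pass were Dnaaf10 and Pih1d1, named after their values were seen, at 0.09 and 0.02. Zmynd10 rose by 4.33 (edgeR adjusted p = 5.79e-15) and Cfap298 by 1.59 (edgeR adjusted p = 3.24e-12). Among 9 regulators of motile cilia, 6 were tested and 4 were higher. Foxj1 rose from 8.01 ± 0.435 to 176 ± 1.58 CPM (SD, n = 2 each; log2 fold change 4.45, edgeR adjusted p = 1.6e-18), Rfx2 by 1.41 (edgeR adjusted p = 1.18e-10) and Rfx3 by 0.40 (edgeR adjusted p = 1.35e-05). The remaining regulator called higher, Ccno, had 40 and 27 counts in the wild-type-labelled libraries and 342 and 249 in the Foxn3KO-labelled ones. Its log2 fold change was 3.14 (edgeR adjusted p = 6.87e-10). Myb (-0.03) and Trp73 (-0.28) did not pass. Mcidas and Gmnc, which start the multiciliated cell programme, were not listed.

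**Figure D4:**
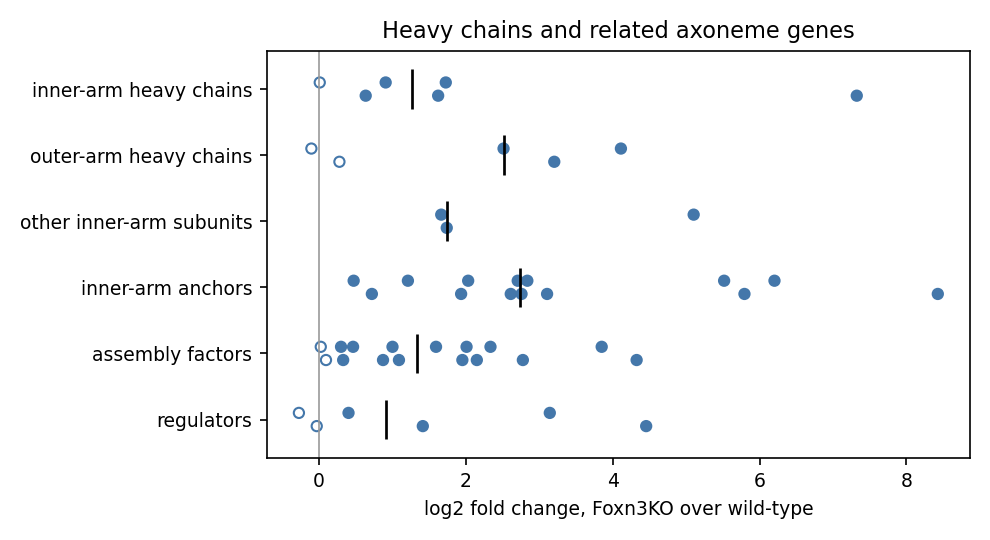
Log2 fold changes, Foxn3KO over wild-type, of each tested gene in 6 lists, 1 row per list; filled points passed the threshold and black bars mark the list medians. All 14 inner-arm anchors lie above 0, from 0.47 to 8.43.

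The 5 genes outside the family whose centred log2 CPM over the 4 libraries lay nearest to the members' mean profile were Cfap70, Agbl4, Trim17, Lynx1 and Fam81a. Their Euclidean distances were 0.0658, 0.0716, 0.088, 0.0948 and 0.105. Their log2 fold changes lay between 1.94 and 2.10. The likeness is that of a mean over 6 unequal profiles and reflects mainly the difference between the groups.

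Markers of other tissues were read in the same libraries and fit, in which 12.3% of all tested genes were called higher and 9.66% lower. Of 8 lens markers 7 were listed (not Lim2), and all 7 were called higher. Their summed level was 5.28 and 59.2 CPM in the wild-type-labelled libraries and 243 and 241 in the Foxn3KO-labelled ones. Of 7 pigment epithelium markers 6 were listed (not Rpe65), with 3 called lower and 0 higher, and the sum was 51.0 and 75.2 against 40.2 and 40.9 CPM. Their part in the members' differences was not tested.

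Of 7 choroid plexus markers, which mark a tissue with motile cilia, 6 were listed and 5 tested. Of those tested, 2 were called higher (12.3% of all tested genes) and 2 lower (9.66%). The sum of the listed markers was 16.2 and 20.2 CPM in the wild-type-labelled libraries and 17.8 and 18.3 in the Foxn3KO-labelled ones. The markers called higher were Folr1 (log2 fold change 1.94, edgeR adjusted p = 4.08e-06) and Aqp1 (1.22, edgeR adjusted p = 0.000836). Those called lower were Clic6 (-1.53, edgeR adjusted p = 0.00103) and Ttr (-0.83, edgeR adjusted p = 0.00928), which is also in the pigment epithelium list. Kcnj13 was not listed. Their part in the members' differences was not tested. None of 7 airway epithelium markers was listed. Of 7 male germ cell markers only Ddx4 was listed, at 1.09 to 2.32 CPM, and it did not pass (edgeR adjusted p = 0.413). In these bulk samples, more cells expressing a gene and more RNA per cell cannot be told apart.

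**Figure D5:**
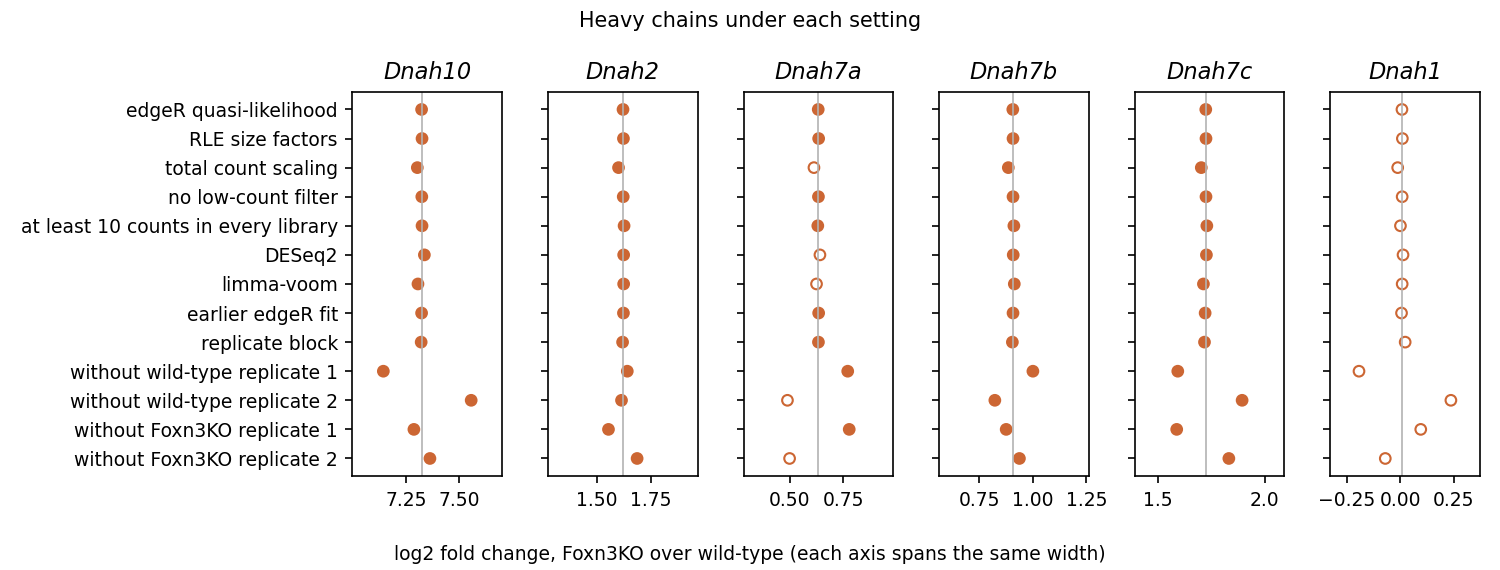
Log2 fold change of each listed heavy chain, Foxn3KO over wild-type, under every fit and library left out; filled points passed the threshold, open points did not, and the grey line marks the value reported. Dnah10, Dnah2, Dnah7b and Dnah7c passed in every setting drawn, Dnah7a in some, and Dnah1 in none.

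Without wild-type replicate 1, the library with the other sex pattern, the log2 fold change was 7.15 for Dnah10, 1.64 for Dnah2, 1.00 for Dnah7b, 1.59 for Dnah7c and 0.77 for Dnah7a. That fit kept a single wild-type library, which was assumed to vary like the others, so only effect sizes are given here. The direction of the called members was thus also measured against wild-type replicate 2 alone.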

How the data were processed

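The counts are whole-number reads per gene and library, deposited by the authors without normalization. The FPKM values, also computed and deposited by the authors, were used only for levels per length. The deposited table further holds a mean signal, log2 fold changes and p-values of the authors' comparison, which were not used beyond the values named. Per the submitters' processing notes, mm39 and DESeq2 were used; the aligner, counter, annotation and use of strand or molecular identifiers are not given in the sources used here.

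A repeated identifier was dropped, leaving 18471 genes. After filterByExpr, 17300 were scaled with TMM factors and tested, two-sided, with edgeR 4.0.16 (R 4.3.3; quasi-likelihood fit, legacy option off; genotype as the only term), with Benjamini-Hochberg adjustment over all of them. CPM are counts scaled to the TMM-adjusted library size, as edgeR computes them. Standard errors were derived from the F statistic. On simulated data for this comparison (17284 genes tested, 200 changed), 87.6% of genes with a log2 change of 1 and 96.4% with 2 were recovered, with 7 false calls. The simulation gave every gene the same fixed dispersion and no library a differing sex pattern. These rates therefore need not hold for the real libraries. Replicates differed by more than sampling noise, with a mean chi-square per gene of 10.1 for the wild-type pair and 1.89 for the Foxn3KO pair. The wild-type mean is raised by the differing sex pattern, as Xist had 83073 counts in replicate 1 and 17 in replicate 2. It therefore need not hold for a typical gene, and a mean without such genes was not computed.

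Alternatives were RLE and total count scaling, other filters, DESeq2 1.42.0, limma-voom (limma 3.58.1), the earlier edgeR fit, a replicate block, an adjusted p under 0.1 and leaving out each library. The members and lists were chosen with earlier results of these data known. Genes outside the family were named by rule: the targeted gene, Foxj1, Rfx2, Rfx3, Xist, the 2 called genes of smallest p in each list of dynein, axoneme and regulator genes, and the 5 nearest profiles. Marker genes of other tissues and of the retina, Dnaaf10, Pih1d1, Ccno, Myb, Trp73 and unlisted genes were named outside that rule, after their values were seen. Total counts ranged from 22543531 to 29360129. Intervals and limits cover counting error only. A further gene meant for the retinal list was removed from it and is not reported here.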

Additional observations from a re-analysis of the deposited data

How the results depend on the processing

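Dnah2, Dnah7b, Dnah7c and Dnah10 kept their direction and passed the threshold in all 12 alternatives, over log2 fold changes of 1.55 to 1.69, 0.82 to 1.00, 1.59 to 1.90 and 7.15 to 7.56. Dnah7a passed in 7 of 12 (0.49 to 0.78). Dnah1 passed in none and changed sign under total count scaling (-0.012) and among the fits that left out a library (-0.193 to 0.237). Of the 6 listed members, 4 or 5 were therefore called in every alternative. DESeq2 called 2433 genes in all, against 3795; the cause was not tested. Leaving out a library gave 2323 to 5067 genes, on 1 sample in a group and fewer samples in the fit, and left 1 or 2 of 2 cytoplasmic heavy chains called, Dync1h1 being lost without either Foxn3KO library. The order of levels per length was the same with CPM over a relative gene length. That length was itself derived from the counts and the FPKM, so only the library scaling could differ. This agreement does not check the gene lengths behind the order. Replicate numbers, which both groups share, gave no pairing of libraries (correlation of deviations -0.00825 over 17300 genes); with the replicate block 4222 genes and 5 heavy chains were called. The depth limits the folds of Dnah10 and Dnah7c, which had 13 to 23 counts in the wild-type libraries.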
